A study of Mus musculus with 16 samples.

Results

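Loss of Spry4 was examined over both drug treatments together, by setting all 8 libraries of undifferentiated spermatogonia from Spry4 germline-knockout mice (KO) against all 8 from wild-type mice (WT), which makes up the 16 libraries of the series. Libraries were assigned by the genotype in their column names, and treatment was kept as a blocking term so that KO and WT were compared within each treatment. Undifferentiated spermatogonia, the mitotic germ cells that include the stem cells of the testis, were sorted from adult mice on day 10 after busulfan. All mice had received busulfan, an alkylating drug that kills germ cells, at 10 mg/kg. From day 3, 4 KO and 4 WT samples came from mice injected daily for 7 days with PD0325901 at 2.5 mg/kg, which blocks the ERK-activating kinases MEK1 and MEK2. The other 4 KO and 4 WT samples came from mice given vehicle with 10% DMSO. Column names carry GCRT together with Spry4KO for KO, and Spry4ff for WT. Whatever GCRT denotes is present in all KO columns and no WT column, so it and Spry4 loss cannot be told apart. The part of Spry4 that was removed, the driver of any recombinase and the sorting markers are not stated in the labels. Nothing in the labels says that replicates came from separate animals, so p-values measure only library-to-library spread, which may be technical.

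Sprouty proteins are feedback inhibitors of receptor tyrosine kinase signalling. They are induced by ERK activity and dampen the route through RAS, RAF, MEK and ERK. In spermatogonial stem cells, the growth factor GDNF acts through the co-receptor GFRA1 and the receptor RET. Fibroblast growth factors act alongside it, and the transcription factors ETV5, BCL6B, LHX1 and EOMES are known targets or companions of this signalling.

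Values are FPKM, sequenced fragments per gene corrected for gene length and for library size, and differences are on the log2(FPKM + 0.5) scale, as KO minus WT. The table held 16383 genes. The 12907 with at least 1 FPKM in at least 4 libraries were tested. Estimated library sizes ran between 23360646 and 36612800 reads, and 12257 to 12805 genes reached 1 FPKM in a library. Zbtb16, which encodes the undifferentiated-cell factor PLZF, stood at 103 to 122 FPKM in KO libraries and 85.6 to 125 FPKM in WT libraries. RNA of other cells was present in varying amounts. The summed FPKM of 10 peritubular myoid (smooth muscle) markers was 1422 to 10072 in KO libraries (median 4588) and 1200 to 12254 in WT libraries (median 6041). Of other somatic markers, 8 of 10 for endothelial cells and 5 of 12 for Sertoli cells passed the filter. So did 2 of 8 for Leydig cells and 2 of 9 for macrophages and leukocytes. In these bulk samples, fewer cells of a type and less RNA per cell cannot be told apart.

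Spry4 (ENSMUSG00000024427) itself was checked first. In KO libraries it stood at 12.96, 8.23, 10.97 and 19.3 FPKM with PD0325901 and at 11.97, 10.1, 7.28 and 14.7 FPKM with vehicle. In WT libraries it stood at 15.9, 19.6, 27.4 and 23.0 FPKM with PD0325901 and at 22.6, 23.8, 21.9 and 19.9 FPKM with vehicle. Only 1 KO library, the fourth with PD0325901, reached above the lowest WT library. The mean was 11.9 ± 3.83 FPKM in KO and 21.8 ± 3.40 FPKM in WT (SD, n = 8 each), so that KO libraries held 54.9% of the WT level and the transcript did not disappear. The log2 difference was -0.88 (SE 0.17, 95% interval -1.24 to -0.53). An exact permutation test of genotype within treatment, two-sided over 4900 regroupings, gave p = 0.000816, where the smallest possible is 0.000408. In the limma fit over all genes the unadjusted p was 8.66e-05 and the Benjamini-Hochberg adjusted p was 0.951, so Spry4 was lower as a single tested gene and did not pass the threshold when adjusted over all 12907. It did pass with library weights (limma adjusted p = 0.0362) and with peritubular and spermatid marker terms in the model (limma adjusted p = 0.0395). The difference was -0.75 with PD0325901 and -1.01 with vehicle. The KO library with the highest Spry4 also had the highest Acta2 (smooth muscle actin) among KO libraries, at 3937 FPKM, and the KO library with the lowest Spry4 had the lowest Acta2 of that genotype, at 538 FPKM. The part of smooth muscle RNA in the remaining Spry4 level was not tested.

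**Figure D1:**
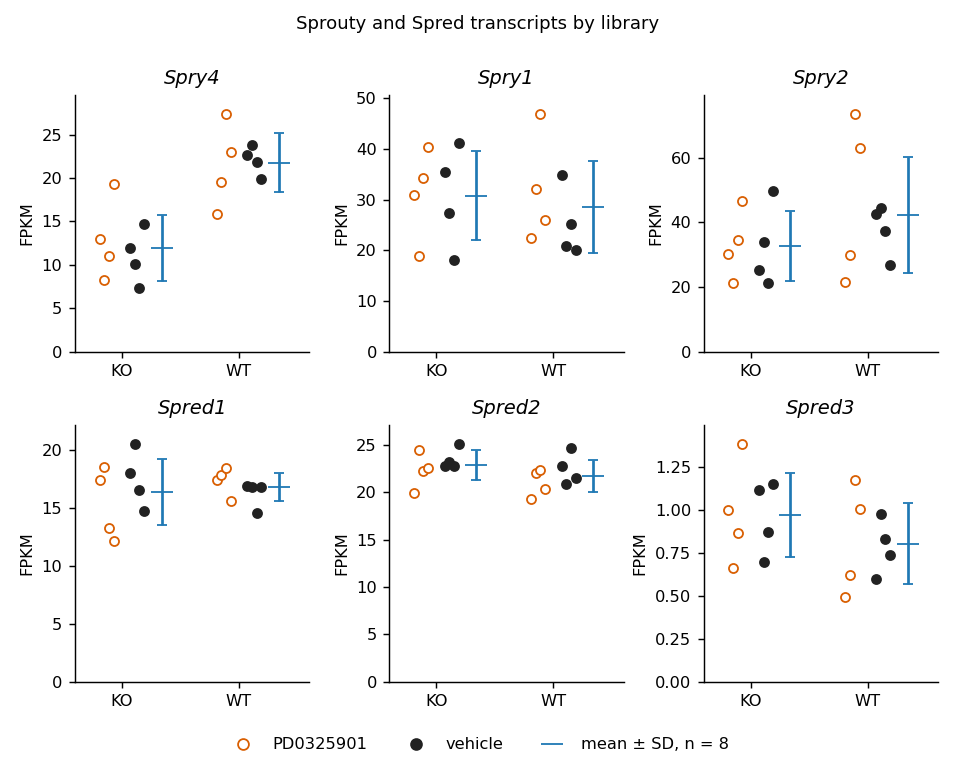
FPKM of 6 Sprouty and Spred genes in each library, KO at left and WT at right, with open circles for PD0325901, filled circles for vehicle and the mean ± SD over 8 libraries as bars. Spry4 averaged 11.9 FPKM in KO and 21.8 FPKM in WT, while KO and WT libraries interleaved for the other 5 genes.

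The other feedback inhibitors showed no shared direction. Spry1 had a lowest, median and highest value of 18.1, 32.6 and 41.1 FPKM in KO libraries, against 20.1, 25.6 and 46.9 FPKM in WT libraries, a difference of 0.10 (SE 0.20). Spry2 had 21.1, 32.1 and 49.9 FPKM in KO libraries, against 21.6, 40.1 and 73.6 FPKM in WT libraries, a difference of -0.32 (SE 0.25). Spred1 and Spred2, which encode membrane-bound relatives that inhibit RAS activation, differed by -0.05 and 0.07. The plot of Sprouty and Spred transcripts shows KO and WT libraries overlapping widely for all of them.

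Across the transcriptome no gene passed the threshold. At a Benjamini-Hochberg adjusted p under 0.05 in limma, 0 of 12907 genes (0% called) differed between KO and WT, and the smallest adjusted p was 0.951. At an unadjusted p under 0.05 there were 590 genes (4.57%), 289 higher in KO (2.24%) and 301 lower (2.33%). The voom fit on reads recovered from the FPKM values also called 0 genes, with 616 at an unadjusted p under 0.05. The count at an unadjusted p under 0.05 was 1287 with library weights and 1294 with peritubular and spermatid terms, both more than 2 times the 590 above. No gene had 8 KO libraries that were all above or all below the 8 WT libraries (0%). Differences were positive for 5693 genes (44.1%) and negative for 7214 (55.9%), with a median of -0.02. This lean depended on normalization, as 6606 of 12907 genes were positive with quantile normalization, with a median of 0.0028. The median half-width of the 95% interval was 0.22. For 12433 genes (96.3%) that interval lay within a 2-fold change in either direction, and for 10853 (84.1%) it lay within 1.5-fold. Genotype accounted for 4.70% of the variance over genes and libraries, treatment for 2.94%, and 1 of 15 degrees of freedom corresponds to 6.67%. Splitting libraries by the lower and higher numbers in their names, 8 in each with both genotypes and both treatments balanced, accounted for 19.3%. The labels do not say what these numbers record.

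**Figure D2:**
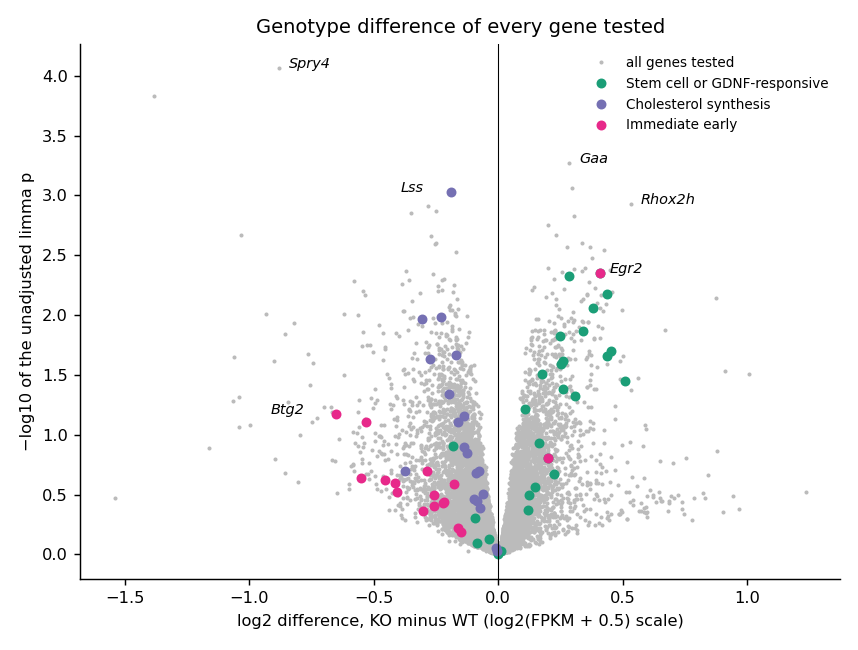
Each point is 1 of 12907 genes, with the KO minus WT log2 difference on the horizontal axis and minus log10 of the unadjusted limma p on the vertical axis, and 3 gene groups in colour. Most points lie close to 0, none passed the adjusted threshold, and Spry4 at -0.88 stands at the top left.

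Genotype differences showed little correlation across genes between the treatments. Across 12907 genes, the KO minus WT differences with PD0325901 and with vehicle, which rest on separate libraries, had a Pearson r of -0.07, and 52.9% of genes had the same sign. Between the lower-numbered and higher-numbered libraries r was -0.20. These are descriptions across genes, which are not independent replicates. limma with Benjamini-Hochberg adjustment called 0 genes with PD0325901 (605, 4.69%, at an unadjusted p under 0.05), 0 with vehicle (251, 1.94%) and 0 for the interaction of genotype and treatment (1.71%). At an unadjusted p under 0.05 the count with PD0325901 was 4302 with library weights and 2284 with peritubular and spermatid terms, and that of the interaction was 3054 and 1310 in the same order, with 0 adjusted calls in each. Gene groups are therefore described below by counts beside those of all genes tested.

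Stem cell genes stood mostly higher in KO. Of 20 listed, 19 were tested; 15 had a positive difference, against 44.1% of all genes, and the median was 0.26, against -0.02 over all genes. None passed the adjusted threshold. At an unadjusted p under 0.05, 11 of 19 were higher in KO (background 2.24%) and 0 were lower (background 2.33%). When treatment and the lower or higher library number were used together to form 4 blocks of 2 KO and 2 WT libraries, 12 of the 19 were positive in all 4, against 6.62% of all genes. With PD0325901, 17 were positive (46.2% of all genes), with vehicle 15 (47.2% of all genes), and 14 were positive with both, against 23.1% of all genes. The list was chosen with earlier results of these data known, so its direction is not independent evidence.

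Etv5 (chromosome 16, 22381309 to 22439719, minus strand, GRCm38) encodes an ETS transcription factor needed for stem cell self-renewal. Its lowest, median and highest values were 46.4, 54.1 and 64.9 FPKM in KO libraries, against 34.7, 45.9 and 55.6 FPKM in WT libraries. All 8 KO libraries exceeded the WT median, yet the ranges overlapped. The difference was 0.29 (SE 0.09, limma Benjamini-Hochberg adjusted p = 0.997), at 0.28 with PD0325901 and 0.29 with vehicle. Shisa6, a membrane protein known as a marker of a stem-like subset, had 0.652, 0.979 and 2.28 FPKM in KO libraries, against 0.405, 0.526 and 1.44 FPKM in WT libraries. Its difference was 0.44 (SE 0.14), and all 8 KO libraries lay above the WT median.

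Several other transcription factors of the stem cell state had positive differences. Lhx1 had 6.50, 8.75 and 11.7 FPKM in KO libraries, against 3.95, 6.14 and 13.8 FPKM in WT libraries, a difference of 0.45 (SE 0.17). The highest library for Lhx1 was thus a WT one. T, which encodes brachyury, differed by 0.44, Pdx1, a homeobox factor, by 0.34, Eomes, a T-box factor, by 0.31 and Bcl6b, a transcriptional repressor, by 0.26. Tcl1, a co-activator of the kinase AKT, had 29.9, 35.2 and 49.6 FPKM in KO libraries, against 19.5, 29.9 and 36.9 FPKM in WT libraries, a difference of 0.38 (SE 0.13). Plvap, known as a marker of the most primitive spermatogonia and also a protein of fenestrated endothelium, had the largest difference of the list at 0.51 (SE 0.22), with 12.2, 17.6 and 29.6 FPKM in KO libraries and 6.84, 11.8 and 20.9 FPKM in WT libraries. Epha2, an ephrin receptor, differed by 0.26. The 4 members with a negative difference were Gfra1 (-0.18), Bmi1, a Polycomb protein (-0.09), Cd82, a tetraspanin (-0.08), and Egr4, a zinc finger transcription factor (-0.04), and none of them had an unadjusted p under 0.05. Leaving out each library in turn gave 14 to 17 positive genes and a median between 0.22 and 0.29.

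The GDNF receptor genes had differences of opposite sign. Ret had 67.0, 78.4 and 98.8 FPKM in KO libraries, against 54.2, 70.9 and 84.6 FPKM in WT libraries, a difference of 0.25 (SE 0.09, limma Benjamini-Hochberg adjusted p = 0.997). Gfra1 had 29.8, 39.3 and 46.0 FPKM in KO libraries, against 34.1, 43.4 and 58.9 FPKM in WT libraries, a difference of -0.18 (SE 0.11). For Gfra1, 6 of 8 KO libraries lay below the WT median, and for Ret 7 of 8 lay above it. Nanos2, an RNA-binding protein that maintains the stem cell state, differed by 0.01 (SE 0.12), and Id4, an inhibitor of helix-loop-helix factors, by 0.11 (SE 0.05).

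Of 15 GDNF-responsive genes, 14 had a positive difference, against 44.1% of all genes. At an unadjusted p under 0.05, 9 were higher in KO (background 2.24%) and 0 were lower (background 2.33%). The median was 0.25, none passed the adjusted threshold, and 8 were positive in all 4 blocks, against 6.62% of all genes. The list shares 7 genes with the stem cell list (Etv5, Bcl6b, Lhx1, T, Eomes, Tspan8 and Tcl1), and together they hold 27 tested genes. It was also chosen with earlier results of these data known, so its direction is not independent evidence. The GDNF-responsive list also shares 2 genes with the ERK output list and 2 with the immediate early list, both described below. Egr2, a zinc finger factor induced by growth factors, had 30.6, 38.4 and 47.2 FPKM in KO libraries, against 19.9, 29.0 and 39.0 FPKM in WT libraries. All 8 KO libraries exceeded the WT median, and the difference was 0.41 (SE 0.12, limma Benjamini-Hochberg adjusted p = 0.997). Dusp6, the cytoplasmic phosphatase of ERK, had 37.7, 50.9 and 52.4 FPKM in KO libraries, against 30.3, 39.5 and 52.4 FPKM in WT libraries, a difference of 0.25 (SE 0.10).

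Somatic marker values stand beside this pattern. Of 8 endothelial markers tested, 7 had a positive difference (44.1% of all genes, median 0.19) and 2, Kdr and Egfl7, were higher in KO at an unadjusted p under 0.05 (background 2.24%). Without the third KO library with vehicle the median was 0.09. Kdr, a receptor for vascular endothelial growth factor, had 1.004, 1.42 and 2.67 FPKM in KO libraries, against 0.735, 0.972 and 1.27 FPKM in WT libraries. Summed endothelial marker FPKM was 30.1 to 71.0 in KO libraries (median 54.7) and 27.3 to 89.0 in WT libraries (median 45.8), and the median difference was -0.03 with PD0325901 and 0.42 with vehicle. Cd68, a macrophage protein, differed by 0.39 (SE 0.12), with 2.603, 3.49 and 5.31 FPKM in KO libraries and 2.04, 2.55 and 3.37 FPKM in WT libraries. Of the macrophage and leukocyte list, 9 of 9 genes had a higher KO mean FPKM with PD0325901 and with vehicle. Of all genes tested, 23.1% had a positive log2 difference with both. Only 2 of the 9 passed the filter, and the others did not exceed 2.35 FPKM in any library. With vehicle the list summed to 9.34, 3.85, 12.7 and 4.25 FPKM in KO libraries, against 5.30, 3.68, 2.96 and 4.66 FPKM in WT libraries. With PD0325901 it summed to 8.66, 4.19, 7.35 and 4.74 FPKM in KO libraries, against 2.62, 4.67, 4.71 and 3.62 FPKM in WT libraries. Their summed FPKM was 3.85 to 12.7 in KO libraries (median 6.04) and 2.62 to 5.30 in WT libraries (median 4.17), and Ptprc, the pan-leukocyte gene, did not exceed 0.0331 FPKM in any library. The part of endothelial or macrophage RNA in the stem cell gene values was not tested.

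**Figure D3:**
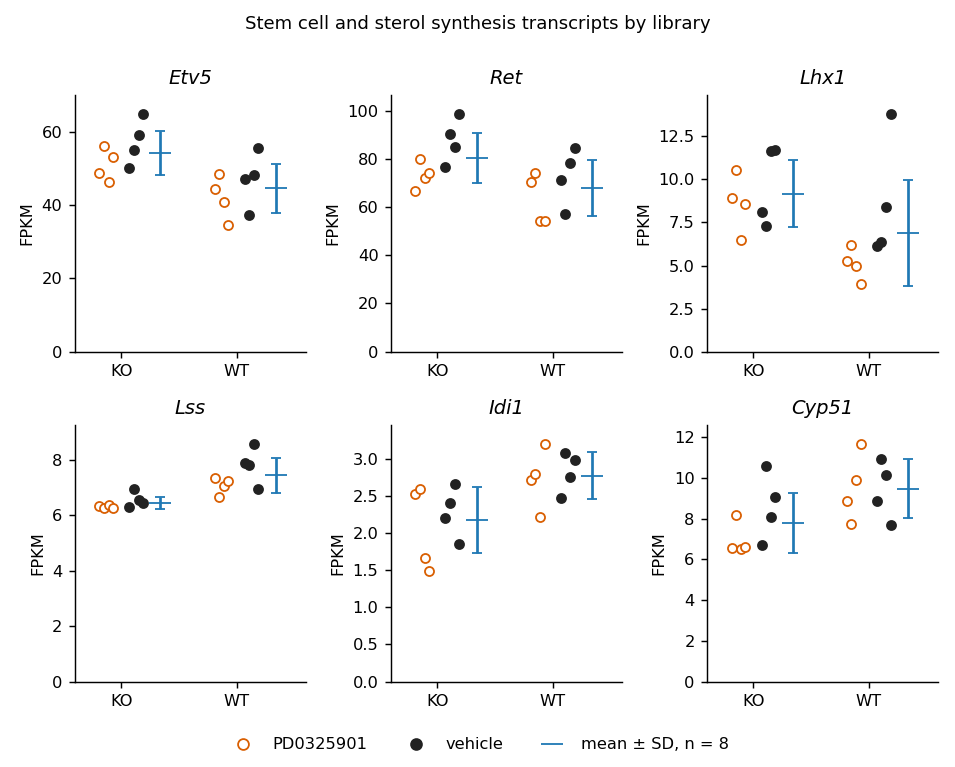
FPKM by library for the stem cell genes Etv5, Ret and Lhx1 and the sterol synthesis genes Lss, Idi1 and Cyp51, KO at left and WT at right, with open circles for PD0325901, filled circles for vehicle and the mean ± SD over 8 libraries as bars. Etv5 had a median of 54.1 FPKM in KO and 45.9 FPKM in WT, and Lss of 6.37 FPKM in KO and 7.28 FPKM in WT, and the ranges overlap in every panel.

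Genes read as output of the ERK pathway showed no common direction. Of 18 tested, 10 had a positive difference and the median was 0.01. At an unadjusted p under 0.05, 4 were higher in KO (background 2.24%) and 0 lower (background 2.33%): Etv5, Dusp6, Epha2 and Il17rd, an inhibitor of fibroblast growth factor signalling that differed by 0.12. Etv4, an ETS factor like Etv5, differed by 0.13 (SE 0.12), and Etv1, the third of that family, by -0.33 (SE 0.23). Upstream, 9 of 22 receptor and adaptor genes and 5 of 16 genes of the RAS, RAF, MEK and ERK core were positive, against 44.1% of all genes. The receptor count was 14 without the third KO library with vehicle and 15 without the third WT library with PD0325901, and the core count was 2 without the fourth WT library with vehicle. The median of the ERK output genes was -0.04 without the first WT library with PD0325901 and 0.06 without the fourth. Within the core, the ERK-activated kinase genes Rps6ka1 and Rps6ka3 differed by 0.14 and -0.18.

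Immediate early genes are transcribed within minutes of a stimulus and also respond to cell dissociation. They mostly had lower values in KO in the pooled comparison and with vehicle, but not with PD0325901. Of 17 tested, 15 had a negative difference (against 55.9% of all genes), the median was -0.26 and only Egr2, which was higher, had an unadjusted p under 0.05. With PD0325901, 11 were positive (46.2% of all genes) and the median was 0.03. With vehicle, 2 were positive (47.2% of all genes) and the median was -0.59. Negative differences with both were found for 6, against 29.8% of all genes. The pooled value thus stands between treatment values of unlike size. The pooled median was -0.15 without the third KO library with vehicle and without the third WT library with PD0325901. Whichever library was left out, 15 genes had a negative pooled difference. No gene of the list had an unadjusted interaction p under 0.05. Btg2, an antiproliferative gene, had 76.1, 162 and 310 FPKM in KO libraries, against 109, 282 and 459 FPKM in WT libraries. Its difference was -0.65 (SE 0.33), at -0.23 with PD0325901 and -1.08 with vehicle. Fosb, a component of the AP-1 factor, differed by -0.53 (SE 0.28). The peritubular markers also differed between treatments, with a median difference of 0.53 with PD0325901 and -0.65 with vehicle, and their part in the immediate early values was not tested.

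**Figure D4:**
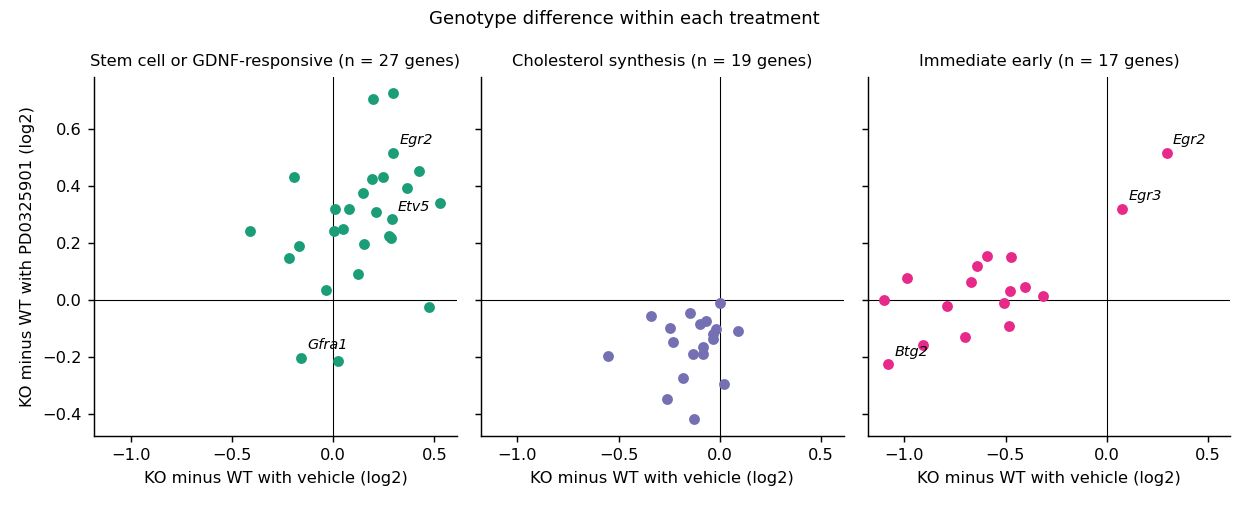
KO minus WT log2 difference with PD0325901 on the vertical axis and with vehicle on the horizontal axis, 1 point per gene, for 27 stem cell or GDNF-responsive genes, 19 cholesterol synthesis genes and 17 immediate early genes. The first group lies mostly in the upper right, the second below 0 with PD0325901, and the third left of 0 except for Egr2 and Egr3.

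All 19 tested genes of cholesterol synthesis had a negative difference, against 55.9% of all genes, although Nsdhl was within 0.01 of 0 and turned positive with library weights (0.04) and quantile normalization (0.02). The median was -0.14. None passed the adjusted threshold; at an unadjusted p under 0.05, 6 were lower in KO (background 2.33%) and 0 higher. With PD0325901, 19 were negative and 0 positive, where 46.2% of all genes were positive. With vehicle, 16 were negative and 3 positive, where 47.2% of all genes were positive. Negative differences with both were found for 16, against 29.8% of all genes. In all 4 blocks 10 were negative, against 6.67% of all genes. This list too was chosen with earlier results of these data known, so its direction is not independent evidence. Lss, lanosterol synthase, had 6.26, 6.37 and 6.96 FPKM in KO libraries, against 6.64, 7.28 and 8.57 FPKM in WT libraries. All 8 KO libraries lay below the WT median, and the difference was -0.19 (SE 0.05, 95% interval -0.29 to -0.09, limma Benjamini-Hochberg adjusted p = 0.997).

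The other 5 lie on both sides of Lss in the pathway. Upstream, Mvk, mevalonate kinase, differed by -0.17, Idi1, isopentenyl diphosphate isomerase, by -0.31 and Fdps, farnesyl diphosphate synthase, by -0.20. Downstream, Cyp51, lanosterol demethylase, differed by -0.27 and Msmo1, methylsterol monooxygenase, by -0.23. Idi1 had 1.496, 2.31 and 2.66 FPKM in KO libraries, against 2.22, 2.77 and 3.20 FPKM in WT libraries. Msmo1 had 5.07, 5.71 and 7.41 FPKM in KO libraries, against 5.84, 7.14 and 7.68 FPKM in WT libraries. Acat2, cytosolic acetoacetyl-CoA thiolase, which feeds the same pathway and was outside the list, differed by -0.25 (SE 0.06), with 9.24, 11.2 and 11.6 FPKM in KO libraries and 11.2, 12.9 and 14.1 FPKM in WT libraries. Pmvk had the largest difference of the list, -0.38, with a wide error (SE 0.28).

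Promoters of 3 of these genes are shown because the members' differences had 1 sign and their letters can be compared. They run from 250 bases before to 50 after the transcript start, from RefSeq on GRCm38.p6, 5′ to 3′ on the gene's strand: Lss at chr10:76531355-76531654 (plus), Msmo1 at chr8:64733529-64733828 (minus) and Idi1 at chr13:8885356-8885655 (plus). Capitals mark CCAAT, the box bound by the factor NF-Y, or its reverse complement ATTGG. Lss holds 1 match, Msmo1 3 and Idi1 2. A promoter was listed for 14 of the genes of the list, and all 14 held CCAAT on either strand, against 41.1% of 27025 genes with a promoter. Mitotic genes, which did not share the direction, held it in 14 of 15. TCACNCCAC, a form of the sterol response element, was found in 1 of the 14 and in 1.44% of all genes. These matches are descriptions of the letters.
Lss: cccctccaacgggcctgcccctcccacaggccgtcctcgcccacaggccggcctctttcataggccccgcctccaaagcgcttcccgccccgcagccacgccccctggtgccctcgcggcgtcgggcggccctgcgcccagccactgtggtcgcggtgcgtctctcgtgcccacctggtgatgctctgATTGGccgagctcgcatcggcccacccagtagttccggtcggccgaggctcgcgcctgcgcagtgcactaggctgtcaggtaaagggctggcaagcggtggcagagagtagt
Msmo1: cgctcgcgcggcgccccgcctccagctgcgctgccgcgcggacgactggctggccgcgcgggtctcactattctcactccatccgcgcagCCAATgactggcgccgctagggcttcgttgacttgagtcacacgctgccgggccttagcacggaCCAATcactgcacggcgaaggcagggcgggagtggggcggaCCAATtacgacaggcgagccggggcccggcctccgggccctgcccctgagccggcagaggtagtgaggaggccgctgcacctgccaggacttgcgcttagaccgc
Idi1: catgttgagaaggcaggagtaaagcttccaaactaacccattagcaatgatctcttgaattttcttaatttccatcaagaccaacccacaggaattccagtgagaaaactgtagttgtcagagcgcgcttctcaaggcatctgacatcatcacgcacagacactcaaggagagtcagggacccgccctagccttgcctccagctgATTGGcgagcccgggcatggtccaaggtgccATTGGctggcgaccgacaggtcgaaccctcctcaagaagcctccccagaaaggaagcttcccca

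**Figure D5:**
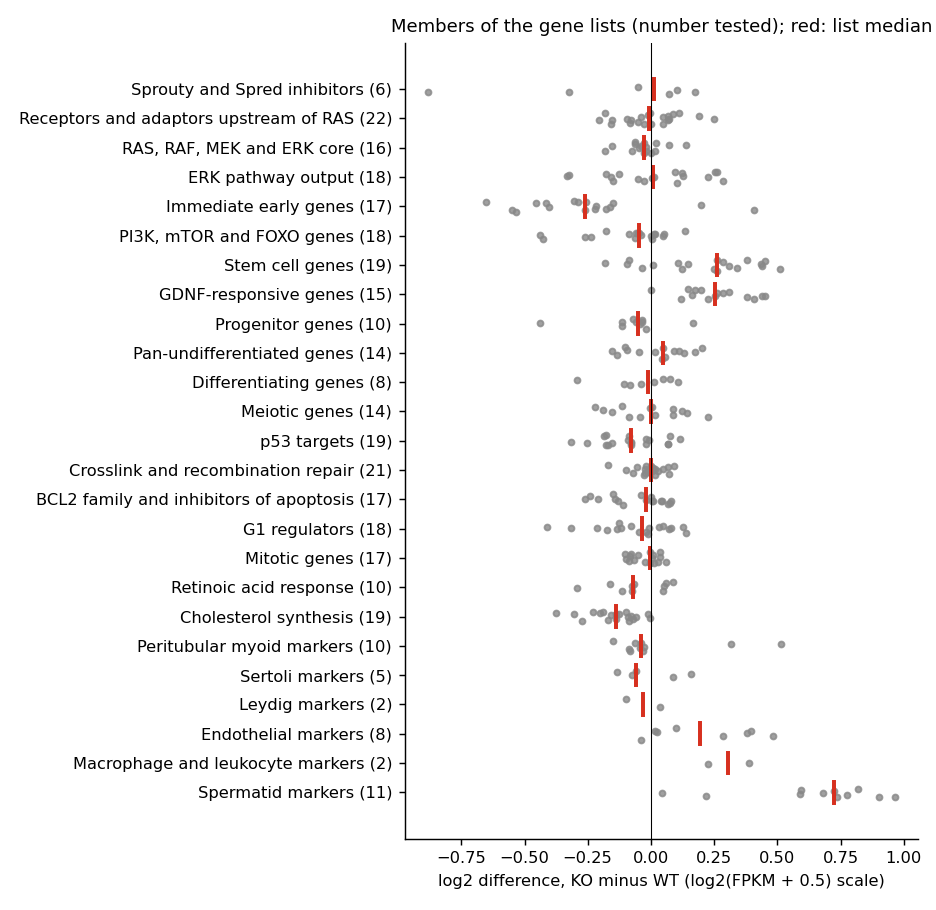
KO minus WT log2 difference of each tested member (grey points) by gene list, with the number tested in brackets and the list's median as a red bar. The stem cell and GDNF-responsive medians stand at 0.26 and 0.25, and cholesterol synthesis at -0.14. Spermatid markers stand at 0.72, and at -0.04 without the third KO library with vehicle.

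Progenitor genes and genes shared by all undifferentiated cells had smaller median differences than the stem cell list. Of 10 progenitor genes, 9 were negative (6 without the fourth KO library with vehicle), against 55.9% of all genes, with a median of -0.05. With PD0325901, 6 were negative, and with vehicle 6 were. Ddit4, an inhibitor of mTOR signalling, was the 1 progenitor gene with an unadjusted p under 0.05, at -0.44 (SE 0.19). Neurog3, the factor that marks progenitors, differed by 0.17 (SE 0.19). Of 14 genes shared by all undifferentiated cells, 9 were positive with a median of 0.05, and Zbtb16 differed by 0.06. Kit, the receptor of differentiating spermatogonia, had 1.46, 2.36 and 3.29 FPKM in KO libraries, against 1.95, 2.35 and 4.496 FPKM in WT libraries, and Stra8, induced by retinoic acid, differed by -0.29 (SE 0.19).

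The pooled median of spermatid markers depended on 1 library. All 11 tested had a positive difference, with a median of 0.72. Prm1, a protamine of condensing spermatids, had 0.853, 7.64 and 739 FPKM in KO libraries, against 0.313, 10.9 and 25.8 FPKM in WT libraries. The highest value came from the third KO library with vehicle, where spermatid markers summed to 3052 FPKM. Without that library 5 of 11 were positive and the median was -0.04. The stem cell median without it was 0.27 with 15 positive, and the cholesterol median was -0.13 with 1 positive. The comparison with PD0325901 does not hold that library. In it 11 of 11 spermatid markers were positive (46.2% of all genes), with a median of 0.50. With PD0325901 the markers summed to 151, 42.1, 38.9 and 63.2 FPKM in KO libraries, against 18.03, 126, 63.5 and 20.9 FPKM in WT libraries. KO and WT sums thus interleaved, and the lowest were those of WT libraries 1 and 4. The 11 signs come from the same libraries and are not independent of each other.

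Cell division and damage genes differed little when pooled over treatments. Of 17 mitotic genes, 7 were positive (1 without the third WT library with PD0325901) with a median of 0.00. With PD0325901, 12 were positive (46.2% of all genes), and with vehicle 2 were (47.2% of all genes). Mki67, the proliferation marker, had 25.4, 35.2 and 44.5 FPKM in KO libraries, against 27.8, 35.5 and 40.9 FPKM in WT libraries. Cdkn1b, the cell cycle inhibitor p27, had 11.2, 15.4 and 18.8 FPKM in KO libraries, against 15.6, 17.9 and 29.0 FPKM in WT libraries, a difference of -0.41 (SE 0.15, limma Benjamini-Hochberg adjusted p = 0.997). Of 19 p53 targets, 15 were negative (55.9% of all genes) with a median of -0.08 and 0 had an unadjusted p under 0.05. With PD0325901, 10 of the p53 targets were positive, and with vehicle 2 were. Among the p53 targets Cdkn1a, the cell cycle inhibitor p21, differed by -0.32 (SE 0.34). In the apoptosis list, Xiap, an inhibitor of caspases, differed by -0.21 and Mcl1, an anti-apoptotic BCL2 relative, by -0.26.

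The other lists lay near the median of all genes, apart from those of a few members. Positive differences were found for 6 of 18 PI3K, mTOR and FOXO genes (median -0.05), 4 of 8 differentiating genes (-0.01), 7 of 14 meiotic genes (0.00), 10 of 21 repair genes (0.00) and 8 of 17 apoptosis genes (-0.02). They were found for 6 of 18 regulators of G1 phase (-0.03) and 4 of 10 retinoic acid response genes (-0.07). Of other cells' markers, 2 of 10 for peritubular cells (-0.04), 2 of 5 for Sertoli cells (-0.06), 1 of 2 for Leydig cells (-0.03) and 2 of 2 for macrophages and leukocytes (0.31) were positive. With quantile normalization all 10 peritubular markers were positive, with a median of 0.03. Without the third KO library with vehicle, 10 of 10 peritubular markers were positive (median 0.18), and 1 of 2 for macrophages and leukocytes (median 0.17). Leaving out single libraries turned the sign of the median of 15 of the 25 lists. It stayed the same for the stem cell, GDNF-responsive, cholesterol, immediate early, progenitor, p53, RAS to ERK core, PI3K, endothelial and macrophage lists. The widest counts were 4 to 16 positive of 21 repair genes and 4 to 11 of 14 meiotic genes. Rfx8 is a gene of the RFX factor family. It had 0.498, 1.72 and 3.66 FPKM in KO libraries, against 0.520, 1.04 and 3.70 FPKM in WT libraries. The pooled difference of 0.39 (SE 0.32) joined opposite signs, 1.30 with vehicle and -0.52 with PD0325901. For Rfx8 the unadjusted limma p of the interaction was 0.00136, and the interaction did not pass the adjusted threshold. The WT value of 3.70 FPKM came from the second library with PD0325901, and the next highest was 1.29 FPKM.

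Among protein-coding genes, those with the smallest p and a positive difference were Gaa, Nubpl, Rhox2h, Smoc1, Rgs12, Sema4b, Rnf26, Crygs, Sirpa and Col13a1. None passed the adjusted threshold. Gaa, lysosomal acid alpha-glucosidase, had 40.2, 43.8 and 55.2 FPKM in KO libraries, against 31.9, 35.7 and 43.1 FPKM in WT libraries, a difference of 0.28 (SE 0.07). In the other 9 the difference was 0.20 to 0.53, the largest being that of Rhox2h, an X-linked homeobox gene with near-identical copies between which reads could be split. At the negative end stood Spry4, Lss and Acat2 with Sec11c, Apoo, Anp32e, Mat2a, Ipo7, Mat2b and Mrps18c, and apart from Spry4 their differences were -0.35 to -0.17. Mat2a and Mat2b encode the catalytic and the regulatory subunit of the enzyme that makes S-adenosylmethionine. Mat2a had 39.1, 43.5 and 48.2 FPKM in KO libraries, against 45.6, 51.3 and 61.5 FPKM in WT libraries, and Mat2b had 19.9, 21.8 and 24.3 FPKM in KO libraries, against 23.2, 24.6 and 28.0 FPKM in WT libraries. For both, all 8 KO libraries lay below the WT median.

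Differences beyond 2-fold were rare, with 10 genes, and Spry4 was not among them. Gm22303, a small nucleolar RNA gene of 122 bases, had 2.02, 4.25 and 8.84 FPKM in KO libraries, against 8.02, 10.6 and 16.9 FPKM in WT libraries, a difference of -1.38 (SE 0.28, limma Benjamini-Hochberg adjusted p = 0.951). That corresponds to 7 to 26 recovered reads in KO libraries and 30 to 75 in WT libraries. As the libraries were made from polyA RNA, whether these reads reflect the small nucleolar RNA was not tested. Another 3 of the 10 share 1 locus. 1700016P03Rik (chromosome 11, 75172560 to 75177633, plus strand, GRCm38) contains the genes of miR-212 and miR-132. It had 2.31, 4.18 and 8.09 FPKM in KO libraries, against 4.90, 9.34 and 14.98 FPKM in WT libraries, and all 8 KO libraries lay below the WT median. Its difference was -1.03 (SE 0.28, limma Benjamini-Hochberg adjusted p = 0.997), at -0.66 with PD0325901 and -1.41 with vehicle. Mir212 and Mir132 differed by -1.04 each, from at most 22 recovered reads a library, and reads of the host transcript cannot be told apart from theirs.

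The mature 3p arms are shown because this locus holds 3 of the 10 genes beyond 2-fold. The libraries were made from polyA RNA and do not measure mature miRNAs. Sequences are from RefSeq on GRCm38.p6, chromosome 11, plus strand, 5′ to 3′, with the seed (bases 2 to 8) in capitals; the seed is the same in both.
mmu-miR-132-3p: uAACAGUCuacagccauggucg
mmu-miR-212-3p: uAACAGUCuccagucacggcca

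Shisa6, Tcl1, Pdx1, T, Bcl6b, Eomes, Epha2, Il17rd, Id4, Msmo1, Idi1, Mvk, Cyp51, Fdps, Fosb, Egr3, Egr4, Bmi1, Cd82, Egfl7, Nsdhl, Ptprc, Acta2, Gm22303, 1700016P03Rik, Mir212 and Mir132 were named after their values were seen.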

How the data were processed

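RNA of 16 samples was sequenced as stranded polyA libraries, per the labels' protocols. The authors deposited FPKM per gene symbol, per the labels. Per the submitters' processing notes, the tools were FastQC, STAR 2.7.10a and edgeR 4.0.14 and the builds mm10 and GRCm39, but the step each served is not given in those sources, nor are the read counter, the gene lengths or any scaling.

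Symbols were matched to GENCODE M21 on GRCm38 (15791, 96.4%). Library sizes were estimated from low values, of which 92.9% to 94.2% under 100 reads came within 0.1 of a whole read. log2(FPKM + 0.5) was fitted with limma 3.58.1 in R 4.3.3 with a mean trend, treatment and genotype as terms, for genes with at least 1 FPKM in at least 4 libraries. Benjamini-Hochberg adjustment ran over 12907 genes, with a threshold of 0.05. The fit was tested on simulated data. The smallest-p genes (10 in each direction, protein-coding), 17 chosen genes and the leading members of 25 lists were named. Members and lists were chosen with earlier results of these data known.

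Alternatives were other pseudocounts, filters, normalization, weights and terms, and each library left out. A voom fit on recovered reads, and marker terms together with the library-number set, were added after seeing the data.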

Additional observations from a re-analysis of the deposited data

Results flagged for a closer look

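The highest or lowest library of 8 lay far from the rest in 9 of 156 groups of 8, where chance flags about 1 in 20 groups. Among KO libraries these were Lss in vehicle library 2, the highest at 6.96 FPKM, with the next at 6.56, and Egfl7 in vehicle library 3, the highest at 3.23 FPKM, with the next at 1.56. Among WT libraries the highest value stood apart for Kit in PD0325901 library 4 (4.496 FPKM, next 2.82), Rfx8 in PD0325901 library 2 (3.70 FPKM, next 1.29), Mat2b in PD0325901 library 1 (28.0 FPKM, next 25.1), Mrps18c in vehicle library 4 (6.49 FPKM, next 5.76) and Egr3 in vehicle library 4 (7.85 FPKM, next 4.86). The lowest value stood apart in WT PD0325901 library 1 for Epha2 (12.5 FPKM, next 18.9) and Mir212 (2.36 FPKM, next 5.34).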

How the results depend on the processing

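The pooled comparison called 0 genes except with library weights (1 gene, Spry4, -0.91, limma adjusted p = 0.0362) and with peritubular and spermatid terms (1 gene, Spry4, -0.88, limma adjusted p = 0.0395). With the library-number set added to those terms, an alternative chosen after seeing the data, the pooled count was 0 (Spry4 limma adjusted p = 0.0752), the contrast with PD0325901 called 857 genes and the interaction 1; the cause was not tested. Leaving out each library gave 0 genes throughout, with 323 (without WT vehicle library 2) to 787 (without KO vehicle library 1) genes at an unadjusted p under 0.05. Spry4 then differed by -0.99 to -0.79, with exact permutation p between 0.000408 and 0.00245 and limma adjusted p between 0.0928 (without KO PD0325901 library 4) and 0.9999. Of 77 other named genes, 66 kept their sign under every alternative that gave them a value, and 0 had an adjusted p under 0.05 in any. There were 28 alternatives, and 21 of these genes had no value where a mean of at least 5 FPKM was required. With library weights Spred1 stood at 0.0059, Nanos2 at -0.023 and Nsdhl at 0.039; with quantile normalization Mki67 stood at 0.0017, Acta2 at 0.16 and Nsdhl at 0.016; with marker terms Prm1 stood at -0.047, and at -0.086 with the library-number set added. Leaving out single libraries turned the sign of 10 genes, within -0.097 to 0.0080 for Spred1, -0.051 to 0.072 for Nanos2, -0.076 to 0.039 for Mki67, -0.37 to 0.22 for Acta2, -0.0022 to 0.083 for Zbtb16, -0.16 to 0.019 for Kit, -0.097 to 0.019 for Egr4, -0.16 to 0.00074 for Bmi1, -0.26 to 0.072 for Cd82, -0.035 to 0.019 for Nsdhl. Quantile normalization left 15 of 19 stem cell genes positive and 2 of 19 cholesterol genes positive, and made 10 of 10 peritubular markers positive.

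Same-numbered libraries were not paired: 10 of 24 pairs had correlated deviations over 0.1, and 5 of 16 libraries correlated best with their own number. With the replicate block 0 genes were called, 716 had an unadjusted p under 0.05, and Spry4 differed by -0.88 (exact permutation p = 0.00781, limma adjusted p = 0.880). Permutation within replicate blocks has fewer regroupings than the 4900 of the main test, so the permutation p-values cannot be compared directly. Spry4 was lower in KO in every same-numbered pair within a treatment.

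With 8 libraries a group, a typical gene's interval spans 0.22 to either side of its difference. Depth limits genes with few reads.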

Other observations

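Differences were spread unevenly over chromosomes. On the X chromosome 121 of 473 tested genes (25.6%) had a positive difference, against 44.1% of all genes, with a median of -0.07. On chromosome 18, which holds Spry4, 88 of 295 (29.8%) were positive and 25 (8.47%) had an unadjusted p under 0.05, against 4.57% of all genes. On the other chromosomes the share positive ran from 32.9% (chromosome 13) to 53.4% (chromosome 7). Their highest share at an unadjusted p under 0.05 was 6.28% (chromosome 6). The lean of signs over all genes depended on normalization, as described above. Of 28 other genes tested within 2 Mb of Spry4, 8 were positive, 0 had an unadjusted p under 0.05, and the median was -0.04. Of 45 small nucleolar RNA genes, 13 were positive and 5 (11.1%) had an unadjusted p under 0.05, with a median of -0.13. Whether values from polyA libraries reflect small nucleolar RNA levels was not tested. These counts were made after the data were seen, and none of these genes other than Spry4 passed the adjusted threshold under any alternative named above for the pooled comparison.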
